A study of Mus musculus with 4 samples.

Results

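The Shh regulatory domain was taken as 5 genes of mouse chromosome 5, Shh, Rnf32, Lmbr1, Nom1 and Mnx1, chosen by name, with 200 kb beyond Shh and 200 kb beyond Mnx1. On the mm9 build this stretch ran from 28583355 to 30005059, a length of 1.42 Mb. Of the 8323 Wapal-binding sites in the genome, 444 lay on chromosome 5 and 3 had their centre in this stretch. One ended 5006 bp past the 3′ end of Shh, one began 2166 bp upstream of its transcription start site (TSS), and one lay inside Lmbr1. They are called the downstream, the upstream and the intronic site.

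Sonic hedgehog (Shh) is a secreted ligand that patterns the limb bud, the neural tube and many other tissues of the embryo. In the limb bud it is switched on by an enhancer, the ZRS, which lies far from the gene in an intron of its neighbour Lmbr1, and mutations there change the number of digits. Wapal releases the ring-shaped cohesin complex from chromatin. Cohesin holds distant DNA segments together in loops, and it is often held at DNA bound by the insulator protein CTCF.

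The sites came from biotin-mediated ChIP-seq of mouse embryonic stem cells (ESCs), in which the ligase BirA biotinylates a tagged protein and streptavidin beads recover it with its crosslinked DNA. Both FB Wapal clones were ESCs that expressed BirA and Wapal with a Flag and a biotin acceptor (FB) tag, below the level of endogenous Wapal, which they kept. The controls were 1 ESC line expressing BirA without tagged Wapal and 1 input of sheared genomic DNA, which the labels place with the cells carrying biotinylatable Wapal. All were grown under standard ESC conditions with no further treatment named. The authors deposited 1 list of regions for both clones and 1 for BirA, each region with a position and a MACS score, which is the negative log10 of its p-value times 10. A Wapal region that shared 1 bp or more with a BirA region was removed, which took 174 of 8497 from the genome and 0 from the Shh domain. The nearest of the 266 BirA regions was 23.0 Mb from a site of the domain. The lists give no read counts, so the depth behind a region is unknown. Because 1 list holds both clones there is no spread between replicates. Sites are not replicates of each other, and all comparisons here are descriptions without a test. The lists contain no expression values, so the ESC identity could not be checked against marker genes.

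The sequences at the 3 sites are shown because each site held the CTCF core motif, the central 12 bases of the sequence that CTCF recognises. It was searched on both strands, and a match had at most 1 mismatch. Capitals mark the matches, and each sequence is read 5′ to 3′ from mm9 on the strand given. The first holds 2 matches on opposite strands, of which the right-hand one is exact and the left-hand one reads on the reverse strand.
Downstream site, chr5:28777828-28777966, forward strand: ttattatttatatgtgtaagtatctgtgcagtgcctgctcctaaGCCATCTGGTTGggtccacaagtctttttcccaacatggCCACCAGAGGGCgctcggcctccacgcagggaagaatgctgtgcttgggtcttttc
Upstream site, left match, chr5:28796157-28796256, forward strand: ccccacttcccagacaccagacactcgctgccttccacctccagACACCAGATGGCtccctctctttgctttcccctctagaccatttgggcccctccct
Upstream site, right match, chr5:28796462-28796561, forward strand: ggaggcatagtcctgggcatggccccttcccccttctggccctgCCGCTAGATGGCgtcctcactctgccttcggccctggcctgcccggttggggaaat
Intronic site, chr5:29619893-29619992, reverse strand: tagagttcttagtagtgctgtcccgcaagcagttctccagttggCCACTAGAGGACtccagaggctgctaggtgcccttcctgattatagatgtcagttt

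The domain also held 5 exact core motifs that lay in no site. They are printed for comparison with the exact motif of the downstream site, with the motif in capitals.
Upstream of Rbm33, chr5:28620714-28620753, forward strand: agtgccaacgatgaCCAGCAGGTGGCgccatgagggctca
Inside Rbm33, chr5:28714922-28714961, reverse strand: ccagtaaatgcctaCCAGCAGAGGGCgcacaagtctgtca
Between Shh and Gm10290, chr5:28845786-28845825, reverse strand: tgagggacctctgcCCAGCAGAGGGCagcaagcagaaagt
Lmbr1 intron 15, chr5:29574848-29574887, forward strand: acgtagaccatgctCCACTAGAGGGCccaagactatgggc
Lmbr1 intron 4, chr5:29662564-29662603, reverse strand: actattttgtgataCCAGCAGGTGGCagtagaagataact

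Shh itself (ENSMUSG00000002633.3, reverse strand, 28783355 to 28793641) had no site within its 10.287 kb, but a site on either side. The upstream site spanned 28795807 to 28796925 and had a score of 260.79, the fifth highest on chromosome 5. In the whole list it ranked 162, and 1.95% of the sites scored as high or higher, where the median was 81.4 and the range 50.0 to 685. It was 1119 bp wide, wider than 86.7% of the list, whose median width was 812 bp. Its near edge was 2.166 kb from the Shh TSS, just outside a promoter window of 2 kb. At 51.7% its GC content was above that of 92.1% of the sites. The downstream site spanned 28777542 to 28778349, with a score of 185.59 and a width of 808 bp. It ranked 571 in the list (6.86% scored as high or higher) and 20 on chromosome 5. The facing edges of both sites were 17.458 kb apart, with Shh between them.

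**Figure D1:**
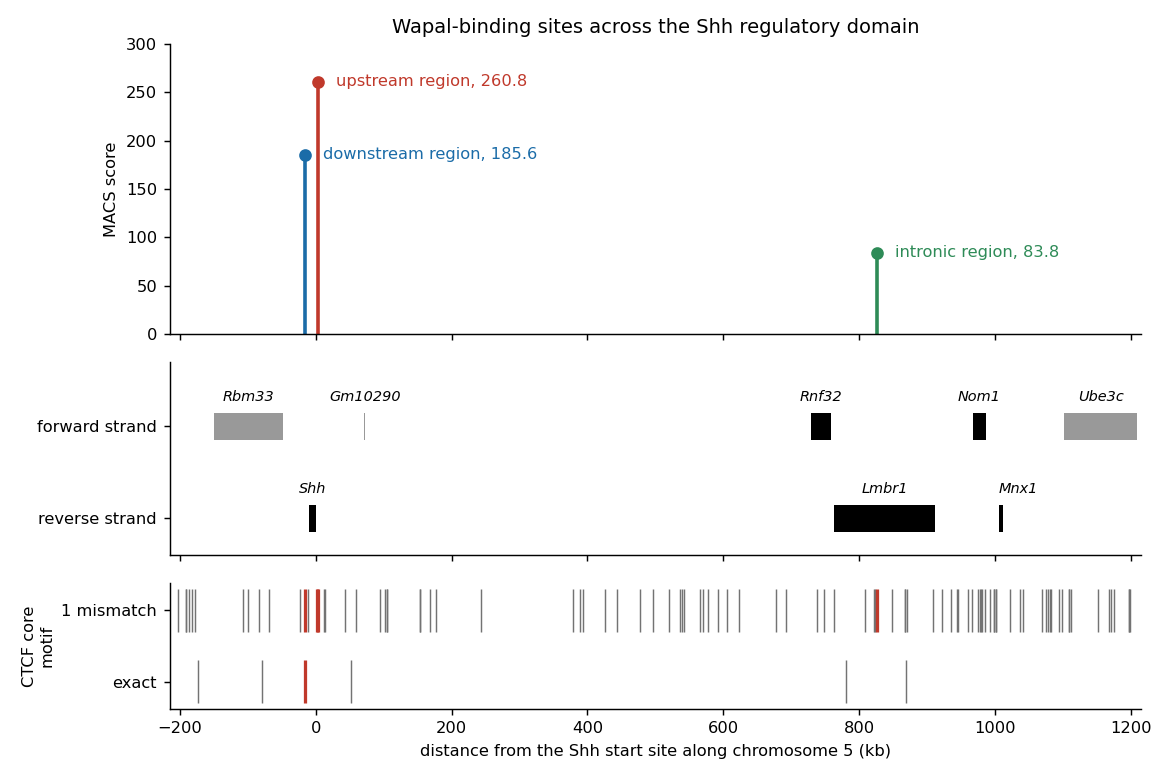
The x axis is the distance from the Shh TSS along chromosome 5 in kb. Stems in the top panel are the MACS scores of the 3 Wapal-binding sites, bars in the middle panel are protein-coding genes (the 5 chosen genes in black, the others in grey), and ticks in the bottom panel are CTCF core motifs, red where inside a site. The sites at Shh scored 185.59 and 260.79, the site in Lmbr1 scored 83.76, and no site lay between the upstream and the intronic one or beyond Lmbr1.

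The upstream site also lay within genes for long noncoding RNAs that start inside Shh and are transcribed on the forward strand, opposite to it. It was in the first intron of both annotated transcripts of 9530036O11Rik and in the first intron of Gm17493. One 9530036O11Rik transcript has its TSS 117 bp from that of Shh, and the site began 2.283 kb downstream of it. The other starts 8.827 kb from the Shh TSS and runs antisense across most of the gene, and the site began 10.993 kb downstream of its start. Gm17493 starts 727 bp from the Shh TSS, and the site began 2.893 kb downstream of that. The site can thus be described as upstream of Shh or as intronic in either noncoding gene.

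Among 22350 protein-coding genes, 78 (0.349%) had a site within 10 kb on each side and none inside. The symbol 2810453I06Rik has 2 overlapping annotated entries, which were counted separately. Shh was one of them, a pattern singled out after its values were seen. Of these 78 genes, Shh had the highest score at the weaker of its flanking sites, 185.59, and the next were Deptor with 165.61 and 9130017N09Rik with 156.41. The median over the 78 genes was 61.2, and 8 genes had at least 100 on both sides. The rank rests on the settings. Within 20 kb, where 270 genes were flanked, Shh ranked 2, within 50 kb it ranked 12 of 1244, and with the BirA regions left in it ranked 2. Within 5 kb, where 20 genes were flanked, it was not among them, as its downstream site ended 5006 bp away.

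Lmbr1 (ENSMUSG00000010721.8, reverse strand, 29556354 to 29704930), a gene for a membrane protein and the host of the limb enhancer of Shh, was the only one of the 5 genes with a site inside. At 148.577 kb Lmbr1 was also the longest of the 5, the others being 5.482 to 29.533 kb long. The share of all protein-coding genes with a site inside is not given here. The intronic site spanned 29619572 to 29620328 and was 757 bp wide. Its score of 83.76 was close to the list median of 81.4, at rank 3953 of the list and 193 on chromosome 5. The upstream site of Shh had 3.11 times this score, which is a ratio of log p-values and not of amounts of Wapal bound. The intronic site was low in GC, at 34.5%, and only 222 sites of the list (2.67%) were lower.

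In the longest annotated coding transcript of Lmbr1, which has 17 exons, the site lay in intron 5, from 29619490 to 29650341. This is the intron in which the limb enhancer is known to lie, and at 30.852 kb it was the longest of the 16 introns. The other 15 introns held no site. The site sat at the far end of the intron in the direction of transcription. Its edge was 82 bp from exon 6 and 30.0 kb from exon 5, and its centre was 98.5% of the way along. The position of the enhancer within the intron is not given in the sources used here, so its distance from the site was not measured. The near edge of the site was 84.6 kb from the Lmbr1 TSS, and its centre was 826.309 kb from the TSS of Shh.

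The other 3 genes had no site inside or within 10 kb. Rnf32 (ENSMUSG00000029130.6, 29522532 to 29552064), which codes for a RING finger protein, had the intronic site of Lmbr1 as its nearest, 67.5 kb past its end and 97.0 kb from its TSS. For Nom1 (ENSMUSG00000001569.9, 29761204 to 29780046), which codes for a nucleolar protein, the same site was nearest, at 141 kb. Mnx1 (ENSMUSG00000001566.8, 29799578 to 29805059), a homeobox gene of motor neurons and the pancreas, was 179 kb from it. Thus 2 of the 5 genes had a site inside or within 10 kb, where 22.3% of all protein-coding genes did. Shh was the only one with a site within 5 kb of its TSS, which 6.81% of protein-coding genes had. The other protein-coding genes within the limits also lacked a site. Rbm33, for an RNA-binding protein, lay 31.8 kb from the downstream site, and the predicted gene Gm10290 lay 68.1 kb from the upstream site. Ube3c, for a ubiquitin ligase, was 275 kb from the intronic site.

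The 3 sites had a median score of 185.59 and a median width of 808 bp, against 81.4 and 812 bp in the list. Their scores thus spanned the range from near the middle of the list to its top 1.95%, whereas their widths were closer together, with 757, 808 and 1119 bp. The downstream and upstream sites, which flank 1 gene, were both above the median score, and the intronic site, in the other gene, was near it.

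**Figure D2:**
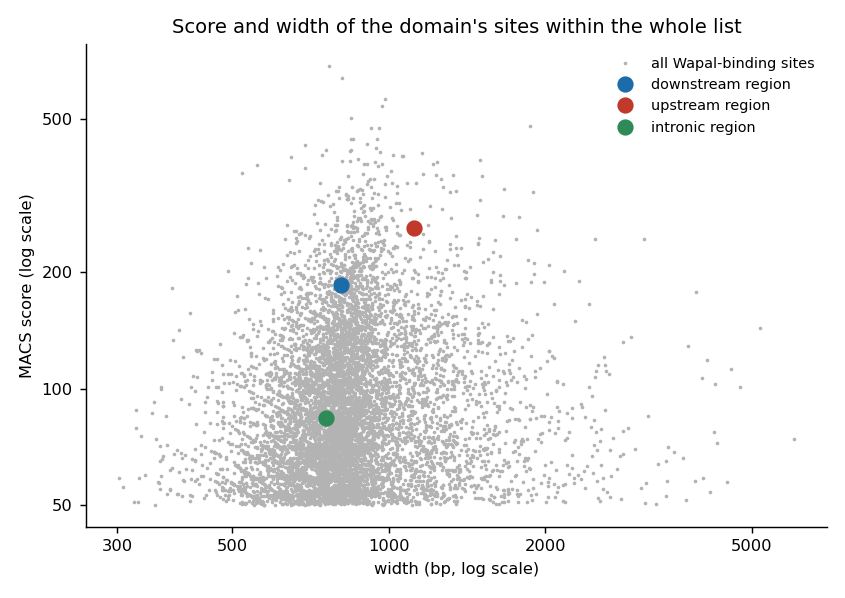
Each grey point is one of the 8323 Wapal-binding sites, by its width in bp and its MACS score, both on log axes. The coloured points are the sites of the domain, of which the upstream site (1119 bp, 260.79) and the downstream site (808 bp, 185.59) lie high in the cloud and the intronic site (757 bp, 83.76) lies in its middle.

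The sites were unevenly spread along the domain. Centre to centre, the downstream and upstream sites were 18.42 kb apart, and 89.7% of the 8303 gaps between neighbouring sites in the genome were as long or longer. From the upstream to the intronic site the gap was 823.6 kb, 5.27 times the genome median of 156 kb. It ranked 36 among the 443 gaps on chromosome 5, and 7.47% of all gaps were as long or longer. Beyond the intronic site the next was 1.32 Mb away, 8.44 times the median, a length reached by 3.46% of gaps. That gap held 20 whole protein-coding genes, among them Nom1 and Mnx1. Before the downstream site the gap was 658.9 kb (10.5% as long or longer). The sites just outside the limits were one in Paxip1, at 28117019 to 28121037 with a score of 106.63, which ended 462 kb before the start of the domain, and one at 30939398 to 30941035 with a score of 123.11, which began 934 kb past its end. The pair at Shh was thus separated from its neighbours by gaps of 658.9 and 823.6 kb.

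**Figure D3:**
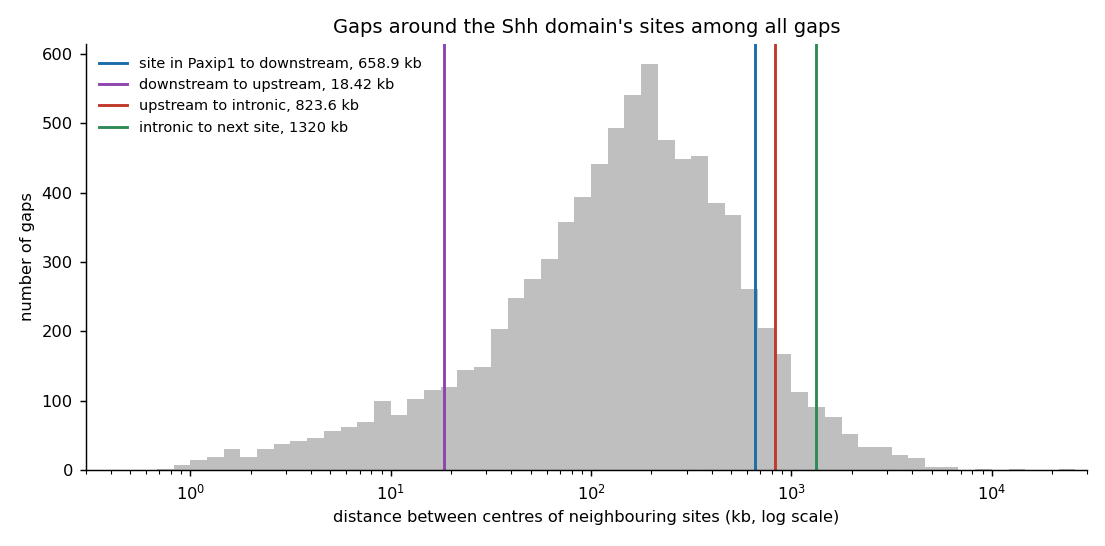
Grey bars count the 8303 gaps between centres of neighbouring Wapal-binding sites by length in kb on a log axis. Vertical lines mark the gaps at the Shh domain, of which that across Shh (18.42 kb) lies to the left of the median of 156 kb and the other 3 (658.9 kb, 823.6 kb and 1320 kb) lie in the right-hand part.

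The stretch between Shh and Rnf32, which in the embryo holds many of the enhancers of Shh, was 728.89 kb long and contained only the upstream site. This gave 1.37 sites per Mb. Among 600 autosomal intervals of at least 500 kb between protein-coding genes, counted between annotated neighbours, 44.8% had that density or more, and the median was 1.23 per Mb. The predicted gene Gm10290 divides the stretch. When predicted genes were left out, so that Shh and Rnf32 became neighbours, the share was 49.1% of 646 intervals. The part between Gm10290 and Rnf32 held no site, as did 161 of the 600 intervals (26.8%). Over the whole domain there were 2.11 sites per Mb, against 3.01 on chromosome 5 and 3.41 on the autosomes per sequenced Mb. Of 1648 adjoining autosomal windows of the same length, 73.5% held 3 or more sites and 36.8% held 3 or fewer. The number of sites in the domain was thus common among windows of this length.

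All 3 sites held the core motif with at most 1 mismatch (95% Wilson interval 43.9 to 100%, counting error only), as did 74.5% of the list. None of the 6 windows of the same width 5 kb to either side of them did, where 9.76% of such windows over the list did. The downstream site held an exact match on the forward strand (28777911 to 28777922), centred 29 bp from the middle of the site. Exact matches were in 28.3% of the list and 0.733% of the flanking windows. The intronic site held 1 match, on the reverse strand at 29619937 to 29619948, only 7.5 bp from its middle. The upstream site held 2 forward matches that started at 28796201 and 28796506, 305 bp apart. Including the downstream site with its matches 39 bp apart, both sites at Shh had more than 1 match, as 10.1% of the list did. Sites with more than 1 match had a median score of 93.7. By best match, the median was 86.5 for exact, 81.9 for 1 mismatch and 76.0 for more. The share with more than 1 match was not adjusted for width, and the upstream site was wider than 86.7% of the list. A match is a description of the sequence, and CTCF binding was not measured in these lists. The paper reports that nearly all of its Wapal-binding sites overlapped CTCF sites from published data. That overlap was not examined here for the 3 sites.

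Most core motifs of the domain lay outside the sites. Of 101 matches, 45 on the forward and 56 on the reverse strand, 5 (4.95%) were in a site, compared with 3.42% on the autosomes and 2.72% on chromosome 5. Of the 6 exact matches, 1 (16.7%) was in a site. This share lay between those of exact matches on chromosome 5 (14.0%) and on the autosomes (19.3%). The stretch from Shh to Rnf32 had 35 matches, of which 1 was exact, and the 200 kb past Mnx1 had 20 without a site. Shh and Mnx1 themselves held none. Lmbr1 had 11, and its 2 exact matches, in introns 4 and 15, were in no site although the match of the intronic site had 1 mismatch.

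The best matches of the upstream and the intronic site faced each other across the 823.6 kb between them, the upstream one reading forward and the intronic one in reverse. For neighbouring sites that both held a match with at most 1 mismatch, 26.5% of 4641 pairs faced each other and 27.5% faced away. Among the 674 pairs at least 500 kb apart, 33.8% faced each other and 17.5% faced away, the remainder reading the same way. By best match the pair across Shh both read forward, and so did the downstream site with the site in Paxip1. The intronic site and the next one both read in reverse. The downstream site also held a reverse match with 1 mismatch, which was not used here. The lists do not measure contacts between sites.

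Across the hedgehog pathway, 18 genes were listed by their roles, and 17 of them could be located, as Disp1 was not found in the annotation. A site lay inside or within 10 kb of 3 of the 17 (17.6%), against 22.3% of all protein-coding genes, and the median distance to the nearest site was 49.9 kb against 54.0 kb. Of the ligands, Shh was alone in having one. Ihh, which acts in growing cartilage and bone, had its nearest site 48.6 kb away with a score of 55.56. Dhh, the ligand of the testis and peripheral nerve sheaths, had one at 29.9 kb with a score of 76.79. Shh therefore had both the closest and the highest-scoring nearest site of the 3 ligands.

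Among the other pathway genes, Hhat, which attaches palmitate to hedgehog ligands, had 4 sites inside its 260.704 kb with scores from 52.66 to 68.1. Boc, a coreceptor, had a site 0.374 kb past its 3′ end with a score of 141.16 and an exact core motif. The receptor Ptch1 was 176 kb from a site, and the transducer Smo was 23.0 kb away. Hhip, which binds and inhibits the ligands, was closest to the limit, at 12.7 kb. The coreceptors Cdon and Gas1 were 138 and 291 kb away, and the ligand-releasing Scube2 218 kb. Sufu, Kif7 and Gpr161, which act in transduction inside the cell, lay 73.3, 103 and 49.9 kb from a site. The transcription factors Gli1, Gli2 and Gli3 lay 204, 33.6 and 67.5 kb away. Boc was the only one of these receptors and coreceptors with a site within 10 kb, and none of the transcription factors had one. As 22.3% of all protein-coding genes had a site inside or within 10 kb, groups this small cannot be told apart from that share.

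**Figure D4:**
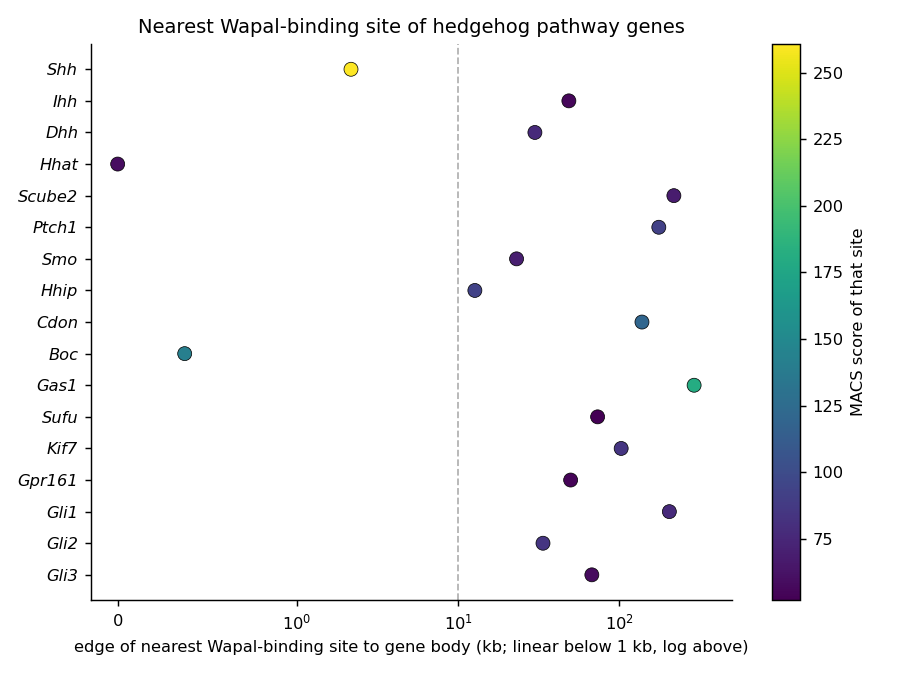
Points give, for each of the 17 located hedgehog pathway genes, the distance in kb from the gene to the edge of its nearest Wapal-binding site, linear below 1 kb and logarithmic above, coloured by the score of that site. The dashed line is at 10 kb, and Shh, Hhat and Boc lie to its left, Shh with the highest score of 260.79.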

How the data were processed

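Reads were aligned by the authors with Bowtie to mm9, and regions were called against input with MACS 1.4.2, per the labels and the study's methods. The deposited value of each region is the authors' MACS score, which is not normalized between lists and was compared only within the FB Wapal list. The rule that joined the clones is not given in the sources used here. Input has no list, and lists per clone were not used here.

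Regions sharing 1 bp with a BirA region were removed. The rest were placed by their centres on GENCODE M1 genes and the mm9 sequence. Background shares used all protein-coding genes, adjoining windows with under 10% unsequenced bases, and intervals of at least 500 kb. Python 3.11.15 with numpy 2.4.6, pandas 2.3.3, scipy 1.17.1 and matplotlib 3.10.9 was used. On simulated data the motif search found 200 of 200 planted motifs.

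The 5 genes and the hedgehog list were chosen with earlier results of these data known. Named were the 5 genes, other protein-coding genes within the limits, and the hedgehog genes, of which 1 is not reported here and was left out of the counts. Genes flanked by sites, and the intervals without predicted genes, were added after values were seen. Alternatives covered BirA removal, score, merging, limits, distances, gene ends and motif settings.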

Additional observations from a re-analysis of the deposited data

How the results depend on the processing

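No paired analysis was possible because both FB Wapal clones share 1 deposited list, and no clone was left out.

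A score of at least 100 removed the intronic site, since its score was below that limit. The sites inside Lmbr1 and in the intron of the limb enhancer then became 0, and the genes with a site within 10 kb 1. The median score became 223.19 and the median width 963.5 bp. The median spacing became 18.42 kb, where it had been 421.0 kb. The earlier value was only the midpoint between gaps of 18.42 and 823.6 kb, and the later one was the only gap left. Windows with as many sites or more became 47.5% and intervals with the density or more 16.2%. With a shorter minimum length of intervals the latter share was 52.7%, where it had been 44.8%, so that the stretch moved from above to below the middle of the intervals. The score limit moved the domain from below to above the middle of the windows. Measuring from the TSS of any transcript left 1 of the 5 genes with a site within 10 kb. This was because the intronic site is far from the Lmbr1 TSS. The share of all protein-coding genes under this setting, or under the score limit, is not given here. With no mismatch allowed 33.3% of the sites held the motif. The density of the domain was 2.46 sites per Mb with limits 100 kb beyond Shh and Mnx1, and 1.48 with 500 kb. Both limits held the same 3 sites, whereas limits at the outer ends of Shh and Mnx1 held 2. With a distance of 50 kb, 9 of the 17 located hedgehog genes had a site. The share of all protein-coding genes at 50 kb is not given here, but their median distance to a site was 54.0 kb. The rank of Shh among the flanked genes, 1 as given, was 2 within 20 kb, 12 within 50 kb and 2 with the BirA regions kept. The cause was not tested beyond these constructions.

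Depth per region is unknown, and a region that missed the calling threshold cannot be told from one without Wapal.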
